A study of Homo sapiens with 38 samples.

Results

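Cells that meet a particle change their transcripts in an order: some transcripts rise within hours and fall back, others move only after days, and some change direction. The comparison described here asked how the response of A549 cells to the highest silica concentration, 6.0 µg/cm2, at 72 h differed from the response of the same line at 24 h. It was made as an interaction in a single fit: the difference between exposed and control cells at 72 h minus the difference between exposed and control cells at 24 h. It used 12 of the 38 arrays of the series, in 4 groups of 3.

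A549 is an established human cell line derived from a lung tumour and used as a model of alveolar epithelium. Cells were given AEROSIL, a fumed amorphous silica made of nanosized particles (NPs), in serum-free medium at 6.0 µg/cm2 for 24 h or for 72 h, and control cells received serum-free medium without NPs for the same times. The control cells therefore also spent 72 h without serum, and a change in them enters the comparison. Each group came from 3 separate cultures, each measured on a single-colour Agilent whole human genome array. The description attached to the 72 h exposed arrays names a 24 h exposure while their source name gives 72 h; the source name was used. The 24 h controls, the 24 h exposed cells and the 72 h controls shared 3 slides and a scan day. The 3 arrays of cells exposed for 72 h lay on 3 other slides and were scanned on another day, so that slide, scan day and 72 h exposure cannot be told apart in the interaction. The median local background was 20.5 to 26 on the first 9 arrays and 21.5, 30 and 35 on those 3. The 75th percentiles of signal of the 12 arrays lay between 838 and 1313.

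The 6 epithelial markers examined were well above background on all 12 arrays. Of the 10 markers of alveolar type II cells, the lineage A549 is taken to represent, 4 were on no control array well above background, and NKX2-1, SFTPB and SLC34A2 were on none of the 12. The macrophage receptor CSF1R, the fibroblast genes COL1A2, DCN and PDGFRB and the endothelial receptor KDR were well above background on no array. Other members of the same lists were measured. The macrophage markers CD14, CD68 and PTPRC, the fibroblast gene COL1A1 and the endothelial gene CDH5 were well above background on all 12 arrays. LUM was so in all groups but the 72 h exposed cells, and VWF, MARCO and PECAM1 on some arrays. The part of other cells was not tested. Each array holds the RNA of a whole culture, so fewer responding cells and a smaller change per cell cannot be told apart.

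Fine silica is taken up by epithelial cells into endosomes and lysosomes, and exposed cells are known to switch on inflammatory genes through NF-kB and AP-1, chaperones through heat shock factor, and amino acid and endoplasmic reticulum stress genes through ATF4. Early-response genes often carry their own brakes, such as TNFAIP3 and DUSP phosphatases, so that they rise and fall. A549 cells also make many plasma proteins otherwise typical of liver.

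Levels below are log2 processed signals relative to the 75th percentile of the same array, so that 0 is a bright transcript and about −6 to −9 is near background. A transcript was called when its adjusted p was under 0.05 over all probes tested and its fold change was at least 1.5. A positive interaction means that the difference between exposed and control cells was higher at 72 h than at 24 h. Of 22606 probes tested, 3888 (17.2%) had a called interaction, 1833 of them higher at 72 h (8.11%) and 2055 lower (9.09%), so that 47.1% were higher. That share was 33% of 2498 with normexp background correction of the median signals, where the median of all probes was −0.17 in place of 0.05. It was 28.4% of 3145 with the median intensities of the authors' value table, where that median was −0.10. Other settings raised the share: 53.6% of 4131 with scaling to the median in place of the 75th percentile and 53.9% of 8564 without the fold threshold. Among probes well above background on all 12 arrays it was 51% of 3370. Which direction prevailed thus depended on the processing. With 1 probe per gene, 1007 of 14598 genes (6.9%) were called higher and 1526 (10.5%) lower, around a median of 0.02. The response to 6.0 µg/cm2 was called for 2051 probes at 24 h (9.07%) and for 3924 at 72 h (17.4%). The response was called at both times for 1068 probes, and for 687 of these the interaction was not called. Among the 24 h calls 43.6% had a called interaction, and among the 72 h calls 53.3%.

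The called interactions were sorted by which response was called. Transient transcripts passed at 24 h and not at 72 h (293 first higher, 220 first lower). Late transcripts passed at 72 h and not at 24 h (737 higher, 974 lower). Reversed transcripts passed at both times in opposite directions (60 from higher to lower, 19 from lower to higher); these 79 became 21 with normexp and 22 with the median intensities. A further 250 grew in the same direction, 223 of them lower, and 52 shrank, 45 of them higher. For the remaining 1283 the interaction passed but neither single response did.

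**Figure D1:**
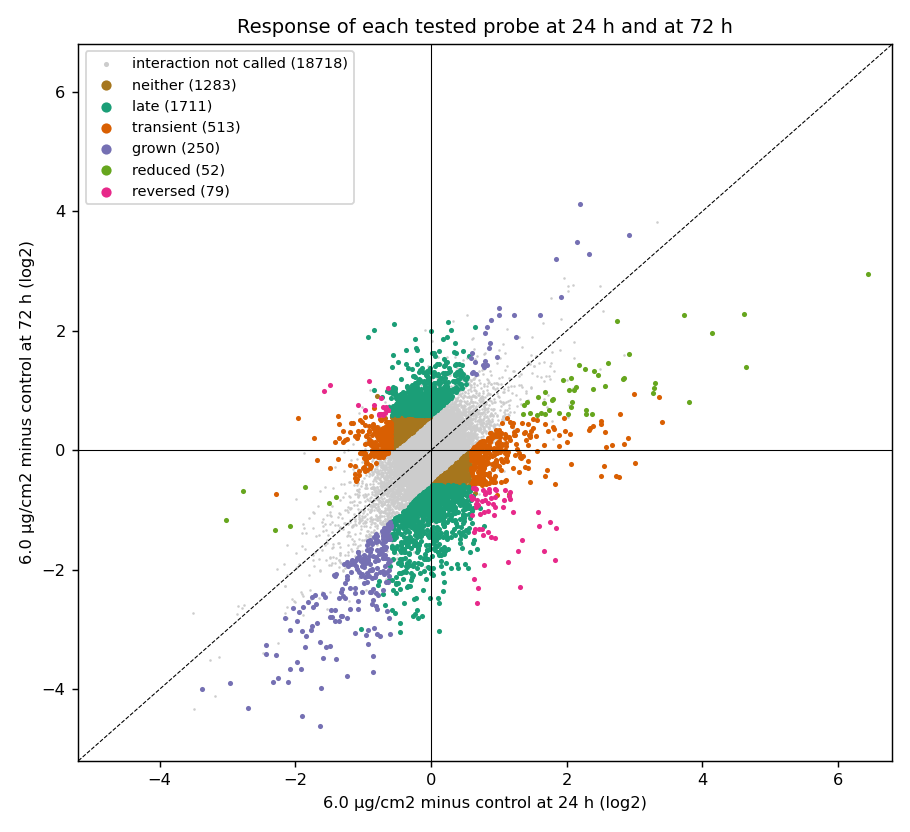
Response to 6.0 µg/cm2 at 72 h (vertical axis) against the response at 24 h (horizontal axis), both as log2 of exposed over control cells, 1 point per probe; colours mark the classes of called interactions. Transient transcripts lie along the horizontal axis, late transcripts along the vertical axis, and the 79 reversed transcripts in the 2 opposite corners.

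The transient increases are shown first. PTPRH, a receptor tyrosine phosphatase of epithelia, stood at −2.18, −2.59 and −2.47 in the 24 h controls and at 0.09, 0.35 and 0.50 in the 24 h exposed cells. At 72 h its controls were at −1.34, −1.38 and −1.30 and its exposed cells at −1.83, −1.89 and −1.60. The exposed cells were thus far above their controls at 24 h and slightly below them at 72 h, with no overlap at either time. The log2 response went from 2.73 to −0.43, an interaction of −3.16 ± 0.18 (SE, adjusted p = 3.71e-06, limma).

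IGFBP1, a secreted binding protein for insulin-like growth factors, was at 1.81, 1.52 and 1.57 in the 24 h controls and 4.11, 4.10 and 4.17 in the 24 h exposed cells. The 72 h levels were 1.66, 1.69 and 1.79 in controls and 1.23, 1.23 and 1.36 in exposed cells. The interaction was −2.93 ± 0.11 (adjusted p = 9.22e-07). Only the 24 h exposed cells stood high; the other 9 arrays lay together. STC1, a secreted glycoprotein hormone, rose by 2.67 on the log2 scale at 24 h and differed by 0.08 at 72 h. SPINK1, a secreted trypsin inhibitor, rose by 2.58 at 24 h and differed by 0.05 at 72 h. BEX2 rose by 2.39 at 24 h and differed by 0.40 at 72 h, below the fold threshold.

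TXNIP, which binds thioredoxin and restrains glucose uptake, rose by 3.00 on the log2 scale at 24 h and had a response of −0.22 at 72 h, which did not pass the test. Its 24 h controls were dim, with 1 array of 3 well above background, and its control level was 2.12 higher at 72 h than at 24 h. HCAR3, a receptor for hydroxylated fatty acids, was not well above background in any 24 h control and was at least 7.88-fold higher in the exposed cells at 24 h. At 72 h its response was 0.47. CD86 and LRRC2 rose at 24 h by 2.55 and 2.77, but their exposed arrays were spread widely. The CD86 levels were 1.29, 1.08 and −0.05 in the 24 h exposed cells and −1.93, −2.99 and −3.90 in the 72 h exposed cells.

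The transient decreases included CNN1, the actin-binding protein calponin of smooth muscle. Its levels were −2.98, −2.86 and −2.89 in the 24 h controls, −4.78, −5.15 and −4.67 in the 24 h exposed cells, −5.22, −5.05 and −4.89 in the 72 h controls and −4.62, −4.54 and −4.37 in the 72 h exposed cells. The 24 h controls alone stood high, and the control level fell by 2.14 between the times while the exposed level moved by 0.36. The interaction was 2.5 ± 0.18 (adjusted p = 8.88e-06). The replication-dependent histone gene H3C7 fell by 1.02 at 24 h and differed by 0.47 at 72 h, and the histone gene H2AC16 fell by 1.42 and differed by 0.14. UBD, a ubiquitin-like protein, fell by 1.38 at 24 h and was not well above background in any cells at 72 h, and its called interaction was lost with normexp background correction and with the median intensities. TAS2R60 fell under the same rule, but both of its 24 h groups were below background, so that no decrease at 24 h was measured.

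**Figure D2:**
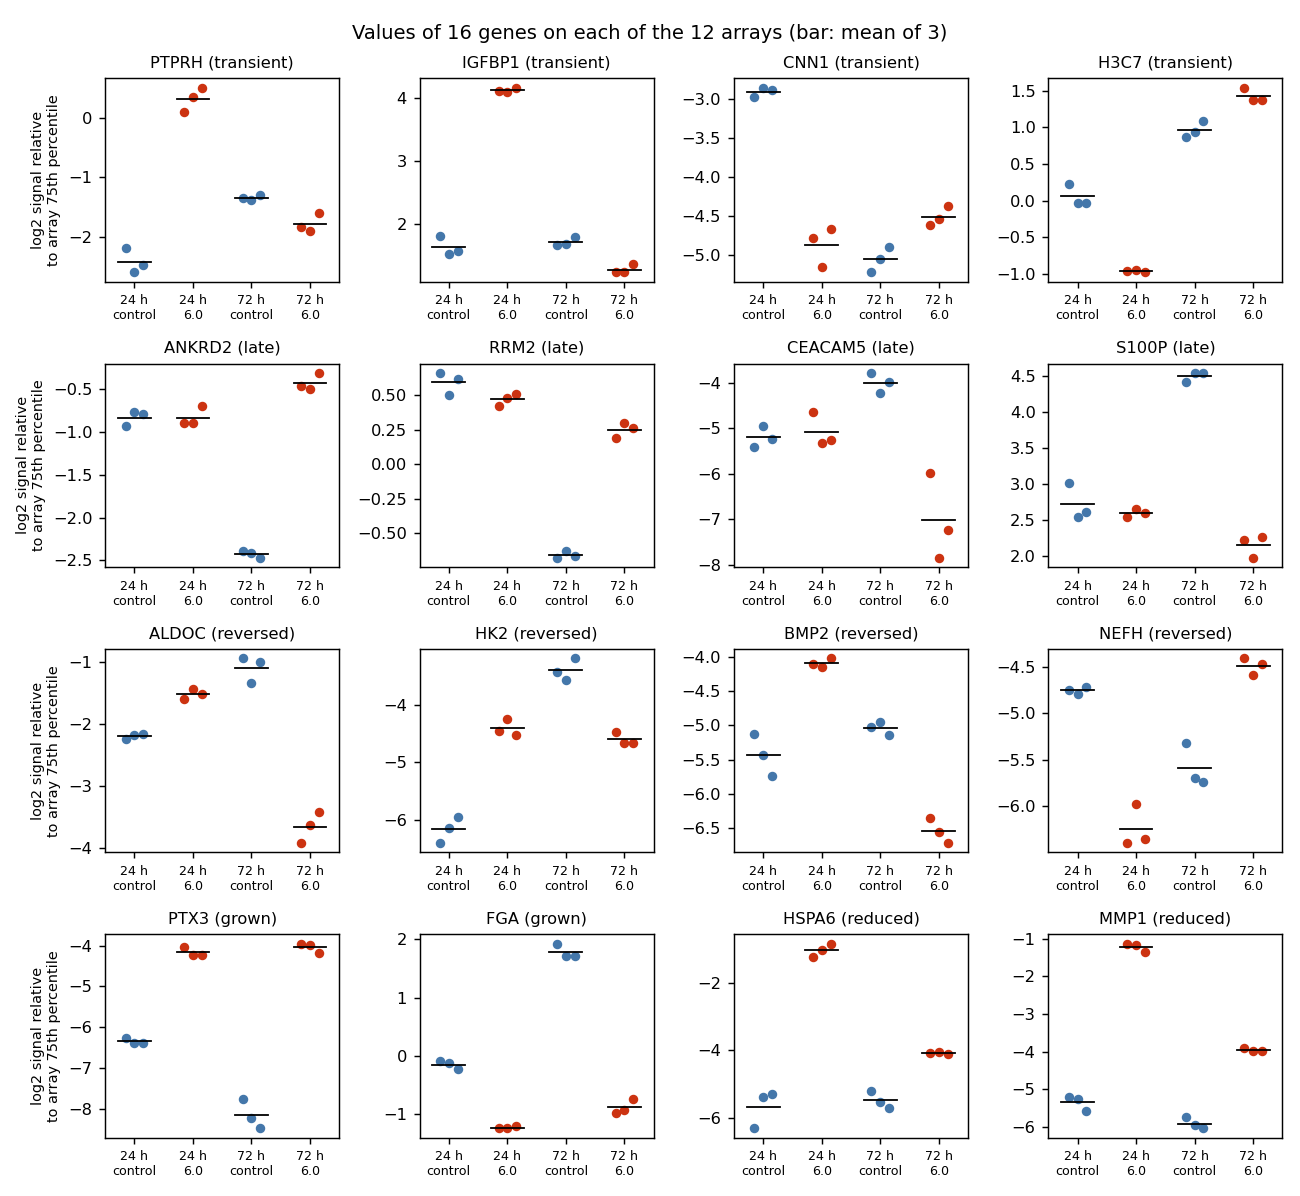
Levels of 16 transcripts on each of the 12 arrays, as log2 signal relative to the array's 75th percentile; points are arrays and bars are group means, with control and exposed cells at 24 h and 72 h side by side. PTPRH and IGFBP1 stand high only in the 24 h exposed cells, S100P stands high only in the 72 h controls, and HSPA6 and MMP1 stand above their controls at both times but less so at 72 h.

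Late increases were fewer than late decreases. ANKRD2, an ankyrin repeat protein of stretched muscle, was at −0.93, −0.77 and −0.79 in the 24 h controls, −0.90, −0.90 and −0.69 in the 24 h exposed cells, −2.39, −2.41 and −2.47 in the 72 h controls and −0.46, −0.50 and −0.31 in the 72 h exposed cells. The 24 h groups overlapped. At 72 h the exposed cells were 2.00 higher on the log2 scale (interaction 2.00 ± 0.11, adjusted p = 3.42e-06), with a control arm of −1.59 and an exposed arm of 0.40 between the times. The small nucleolar RNA SNORA74A was 2.01 higher at 72 h after 0.29 at 24 h, and there the control level moved by −0.15 and the exposed level by 1.57. Its call was lost with normexp background correction and with the median intensities. SPANXA1 was 1.62 higher at 72 h after 0.04. FAM151A and VXN also ranked among the largest, both with groups that were not well above background. FAM151A entered the test only through the 72 h exposed cells, which fixed its direction. VXN was at least 1.27-fold higher at 72 h, but its interaction of 2.10 became −0.26 with normexp and −0.03 with the median intensities.

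Late decreases included both CEACAM5 and its relative CEACAM1. CEACAM5, a cell surface adhesion molecule, was at −5.42, −4.94 and −5.23 in the 24 h controls, at −4.63, −5.33 and −5.26 in the 24 h exposed cells, at −3.78, −4.23 and −3.97 in the 72 h controls and at −5.99, −7.85 and −7.24 in the 72 h exposed cells. The 24 h groups overlapped and the 72 h groups did not. The fitted response was −3.03 at 72 h (interaction −3.15 ± 0.55, adjusted p = 0.0015), with 1 of the 3 exposed arrays well above background there. CEACAM1, of the same family, had a response of −2.73 at 72 h after −0.54 at 24 h.

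S100P, a calcium-binding protein abundant in tumours, was at 3.01, 2.54 and 2.61 in the 24 h controls and 2.54, 2.66 and 2.60 in the 24 h exposed cells. At 72 h it was at 4.41, 4.54 and 4.54 in controls and 2.22, 1.98 and 2.27 in exposed cells. The control cells had gained 1.77 in 48 h and the exposed cells had not (−0.44), an interaction of −2.21 ± 0.17 (adjusted p = 1.27e-05). KLF9, a transcription factor induced by glucocorticoids, gained 2.63 in control cells and 0.40 in exposed cells. SPON2, a secreted matrix protein, moved the other way: 0.22 in control cells and −2.02 in exposed cells. ALOX5, the lipoxygenase that begins leukotriene synthesis, was at −4.34, −4.29 and −4.45 in the 72 h controls and not well above background in the 72 h exposed cells, at least 4.46-fold lower. ADH4 and EXD3 were at least 1.79-fold and 2.5-fold lower at 72 h. ADH4 entered the test only through the 72 h controls, which fixed its direction.

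Reversed transcripts first rose and then fell, or the opposite. ALDOC, the brain form of the glycolytic enzyme aldolase, was at −2.24, −2.18 and −2.16 in the 24 h controls and −1.60, −1.43 and −1.52 in the 24 h exposed cells. At 72 h it was at −0.94, −1.34 and −1.0 in controls and −3.92, −3.63 and −3.42 in exposed cells. It was 0.67 higher in exposed cells at 24 h and 2.56 lower at 72 h (interaction −3.24 ± 0.18, adjusted p = 3.71e-06). HK2, the hexokinase that traps glucose in the cell, was 1.75 higher at 24 h and had a response of −1.2 at 72 h, without overlap at either time. Its control level rose by 2.76 between the times and its exposed level moved by −0.19.

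PCSK1, a prohormone-processing protease, had the largest interaction named, −3.66 ± 0.64 (adjusted p = 0.00156), but on low signals: 1 of 3 control arrays at each time was well above background, and at 72 h the bound was at least 1.19-fold lower. It entered the test only through the 24 h exposed cells, which fixed its direction, so its rank and adjusted p are a description only. BEX4 was not well above background in the 72 h exposed cells, at least 1.29-fold lower there. SLC6A12, a betaine transporter, was at least 2.58-fold lower at 72 h, but at 24 h only 1 of the 3 exposed arrays and none of the controls measured it well above background, so that its rise at 24 h is not a measured level difference. It entered the test only through the 72 h controls, which fixed its direction. TRIM31, a ubiquitin ligase of epithelia, was measured on all 12 arrays. It was 0.70 higher at 24 h with a response of −2.31 at 72 h. NDRG1, a stress- and hypoxia-induced gene, went from 0.75 to −1.32, and the cyclin CCNG2 from 0.70 to −1.32. BMP2, a secreted growth factor, was at −5.13, −5.43 and −5.74 in the 24 h controls and −4.10, −4.15 and −4.02 in the 24 h exposed cells, and was at least 2.58-fold lower at 72 h, where no exposed array was well above background.

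From lower to higher, NEFH, the heavy neurofilament protein, was at −4.75, −4.79 and −4.72 in the 24 h controls and −6.40, −5.98 and −6.35 in the 24 h exposed cells. At 72 h it was at −5.32, −5.70 and −5.74 in controls and −4.41, −4.59 and −4.47 in exposed cells. The response went from −1.49 to 1.1 (interaction 2.58 ± 0.18, adjusted p = 8.88e-06), and the call was lost with normexp and with the median intensities. CABP7, a calcium-binding protein, went from −1.58 to 0.99 with a call that was lost with normexp, and the long non-coding RNA DLEU2L from −0.63 to 1.03. CLSPN, the claspin adaptor of the replication checkpoint, went from −0.77 to 0.59. In CLDN10, a tight junction claudin, the 24 h exposed cells were not well above background, at least 1.97-fold lower, and the 72 h response was 0.67. Its interaction of 1.65 became −0.07 with normexp.

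Among the increases that grew, PTX3, a secreted pattern recognition protein, was at −6.26, −6.39 and −6.39 in the 24 h controls and −4.03, −4.22 and −4.22 in the 24 h exposed cells. The 72 h exposed cells were at −3.95, −3.97 and −4.18, near the 24 h exposed cells, while the 72 h controls had sunk below background. The response was 2.19 on the log2 scale at 24 h and at least 5.65-fold at 72 h. The interaction of 1.94 rested on that dim group and became −0.18 with normexp. VSTM1 and CCK, the gut hormone cholecystokinin, grew from 0.89 to 2.18 and from 1.22 to 2.26, again with a falling control arm (−1.70 and −0.64).

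TM4SF20, a membrane protein of the intestine, was at −2.38, −2.47 and −2.57 in the 24 h controls and −3.65, −3.70 and −3.78 in the 24 h exposed cells. Its 72 h levels were −1.62, −1.40 and −1.40 in controls and −5.08, −5.47 and −5.21 in exposed cells. The arms moved apart, by 1.00 in control cells and −1.54 in exposed cells. USH1C, a scaffold of microvilli, grew from −1.41 to −3.50. TF, the iron carrier transferrin, grew from −1.64 to −4.62, with 1 of 3 exposed arrays well above background at each time, and ADH6 was at least 6.75-fold lower at 72 h.

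Among responses that shrank, C11orf96 went from −6.05, −6.82 and −6.44 in controls to −0.02, −0.04 and 0.06 in exposed cells. Its 72 h levels were −5.13, −4.85 and −5.66 in controls and −2.30, −2.34 and −2.16 in exposed cells. The fitted response went from 6.43 to 2.95 (interaction −3.49 ± 0.30, adjusted p = 2.38e-05), and the groups stayed apart at both times. As 1 of the 3 24 h controls was well above background, the size of the 24 h response rests on signals near background. CD68, a glycoprotein of lysosomes also used as a macrophage marker, went from 2.29 to 0.61. The 5 macrophage markers, summed on the linear scale where the brightest weigh most, were higher in exposed cells at 24 h and lower at 72 h. The sums were 0.55 to 0.573 in the 24 h controls, 1.5 to 1.64 in the 24 h exposed cells, 2.9 to 3.06 in the 72 h controls and 1.56 to 1.73 in the 72 h exposed cells. Mean log2 levels of CD14 were −2.07 in controls and −2.76 in exposed cells at 24 h, and 1.32 and −0.07 at 72 h. CD68, CD14 and PTPRC were measured on every array, and the part of other cells in these values was not tested. The sphingosine-1-phosphate exporter SPNS2 went from 2.37 to 0.61. In the other direction, DDC, which makes dopamine and serotonin, went from −2.31 to −1.34, and RNF43, a brake on Wnt receptors, from −1.51 to −0.89.

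A called interaction can come from the control cells, from the exposed cells or from both, and so each arm was followed over time. Between 24 h and 72 h, 4462 probes were called in control cells (19.7%), 2935 higher and 1527 lower, and 5653 in exposed cells (25%), 3608 higher and 2045 lower. Where an initial decrease grew, the median control level rose by 0.88 and the median exposed level moved by −0.07, and the control arm was the larger in 78.5% of the 223 probes. Late decreases had a control median of 0.52 and an exposed median of −0.48, with the control arm larger in 53.1%. Transient increases had 0.10 and −0.93, with the control arm larger in 23.2%, and reversed transcripts that were first higher had 0.47 and −1.33, with 18.3%. The arms share the arrays with the interaction and describe it rather than test it.

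**Figure D3:**
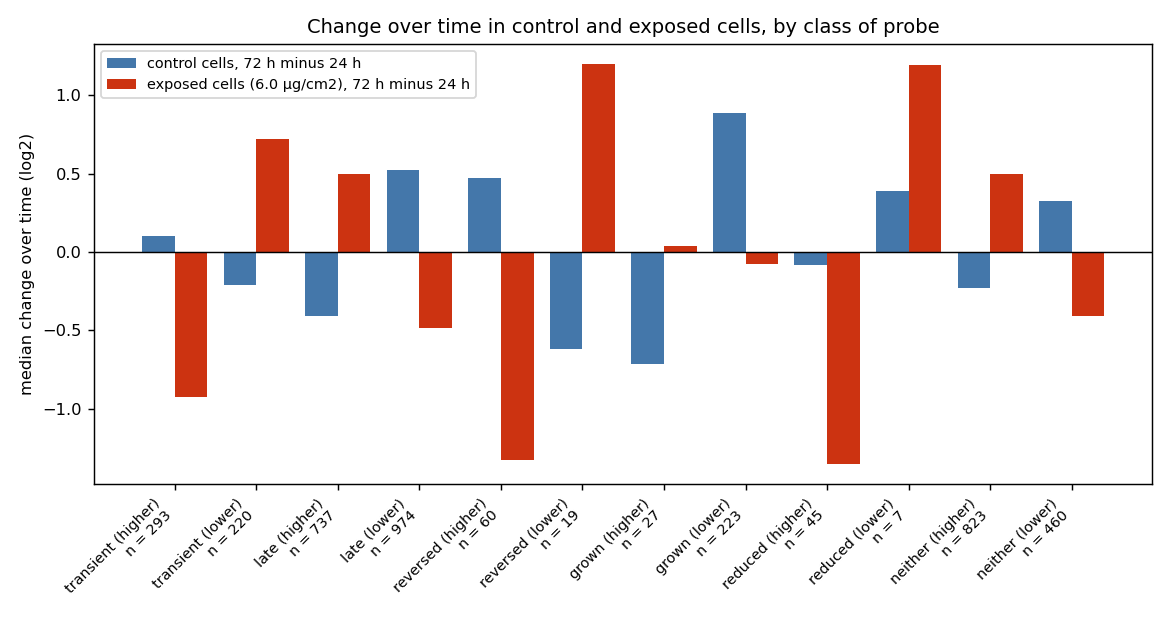
Median change between 24 h and 72 h (log2) in control cells and in exposed cells for each class of called interactions, split by the direction of the first response. The control median is the larger where a decrease grew (0.88 against −0.07), and the exposed median is the larger in transient increases (0.10 against −0.93) and reversed increases (0.47 against −1.33).

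The same step was also available between 3.0 and 6.0 µg/cm2, without any control array and, at 72 h, within 1 scan day: the difference between the doses at 72 h minus that at 24 h was called for 950 of 22505 probes (4.22%). It shares the 6.0 µg/cm2 arrays with the interaction, so the values are given side by side only. Of 3826 called interactions also tested for the dose step, 768 (20.1%) had a called dose step. The sign was the same for 95.2%, to which the shared arrays contribute. For ALDOC the interaction was −3.24 and the dose step −1.08, for HK2 −2.95 and −1.21, for TRIM31 −3.00 and −1.82, for S100P −2.21 and −1.15 and for KLF9 −2.23 and −1.35. For HSPA6 they were −3.24 and −1.78 and for RRM2 1.03 and 0.85. HCAR3 and SNORA74A had dose steps near 0 (−0.22 and 0.00) beside interactions of −2.94 and 1.72.

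Known groups of genes are described next, from 22 lists of which 445 of 497 genes were tested, each beside the share of all genes called (6.9% higher, 10.5% lower) and the median of all genes (0.02). Unless they had a place among the named genes, single members were chosen after their values were seen.

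**Figure D4:**
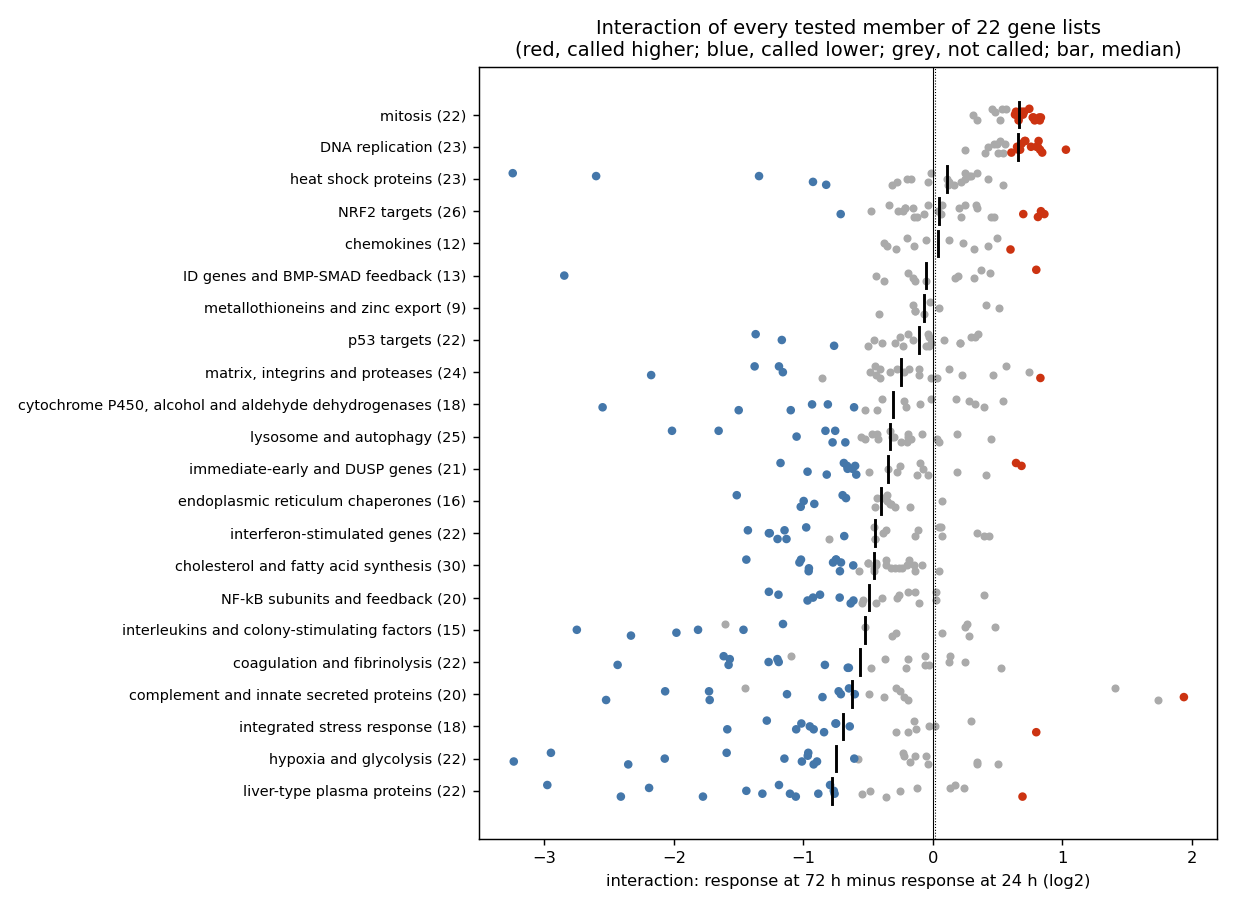
Interaction (log2, 72 h response minus 24 h response) of each tested member of the 22 gene lists, 1 point per gene, with the list's median as a bar; filled points are called. The mitosis and DNA replication lists have medians of 0.66 and the liver-type plasma protein, hypoxia and integrated stress response lists medians of −0.70 or below.

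Of 15 interleukins and colony-stimulating factors tested, 6 were lower at 72 h than at 24 h and none higher. For 4 of the 6 (CSF2, CSF3, IL1B and IL24) a single group in which they were high let them into the test, which fixed their direction, so the count is not read against that of all genes. CSF3, which drives neutrophil production, was at −5.77, −5.83 and −5.55 in the 24 h exposed cells and not well above background in the other 3 groups, at least 2.09-fold higher at 24 h. CSF2, which drives macrophage growth, had the same pattern, at least 1.32-fold, with a call that was lost with normexp. IL24 was at least 8.02-fold higher at 24 h and at least 1.38-fold higher at 72 h by its brighter probe, while the other probe had responses of 2.90 and 0.20 and was transient. Of 12 chemokines, 1 was called: CCL2, a monocyte attractant, with a response of 0.22 at 24 h and 0.81 at 72 h, a call lost with normexp, quantile normalization, the median intensities and each of 5 arrays left out (0.54 to 0.58). The chemokine median, 0.04, was near that of all genes and turned negative with normexp (−0.27), quantile normalization (−0.07) and the median intensities (−0.16), and the response medians were 0.46 at 24 h and 0.54 at 72 h.

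Of 20 NF-kB subunits and feedback genes, 8 were lower and none higher, with a median of −0.49. SOD2, the mitochondrial superoxide dismutase, was at 1.43, 1.35 and 1.38 in the 24 h controls, 3.21, 3.28 and 3.33 in the 24 h exposed cells, 1.32, 1.29 and 1.30 in the 72 h controls and 1.97, 1.87 and 1.94 in the 72 h exposed cells. The response shrank from 1.89 to 0.62 (interaction −1.27 ± 0.07, adjusted p = 3.57e-06), while the controls of both times lay close together. TRAF1, a TNF receptor adaptor, had a response of 1.44 at 24 h and 0.25 at 72 h. TNFAIP3, the deubiquitinase A20 that ends NF-kB signalling, went from 1.56 to 0.59. Of 22 interferon-induced genes 8 were lower and none higher, among them OASL (from 2.07 to 0.80) and IFIT2, an inhibitor of viral translation (from 0.84 to −0.42). The other IFIT2 probe was not called (interaction −1.17, adjusted p = 0.0619, limma). Another of the 8, IFI44, entered the test only through the 24 h exposed cells, which fixed its direction.

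The TNFAIP3 promoter, from RefSeq (GRCh38.p14, chr6:137867009-137867308, plus strand, 250 bases before to 50 after the start), is shown because it belongs to a list in which NF-kB letters were frequent. Capitals mark matches, on either strand, to any of 7 motifs searched: NF-kB GGANTTTCC, AP-1 TGACTCA, CRE TGACGTCA, heat shock element GAANNTTC, antioxidant element TGACNNNGC, E2F TTCCCGC and HNF1 TTAATNATT. The antioxidant element can overlap an AP-1 or CRE match.
TNFAIP3: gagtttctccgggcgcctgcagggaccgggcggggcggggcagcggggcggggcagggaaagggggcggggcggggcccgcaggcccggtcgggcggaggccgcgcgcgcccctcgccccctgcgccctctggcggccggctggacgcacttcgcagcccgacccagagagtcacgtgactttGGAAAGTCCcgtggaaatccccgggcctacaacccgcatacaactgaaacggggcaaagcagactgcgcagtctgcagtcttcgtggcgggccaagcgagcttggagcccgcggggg
The capitals are the NF-kB letters, from base −67 relative to the start. These letters were in 35.3% of 17 promoters of the list and 1.59% of the 11542 promoters of tested genes. They were in 5% of 160 promoters of transient increases and in 16.7% of 24 promoters of increases that shrank. AP-1 letters were in 20.8% of those 24 and in 3.4% of all 11542. A match is a description of the letters only.

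Of 18 genes of the integrated stress response, which ATF4 drives, 10 were lower and 1, the amino acid transporter SLC7A5, was higher, with a median of −0.70. CTH, which makes cysteine, was at −0.26, −0.08 and −0.26 in the 72 h controls and −1.50, −1.55 and −1.64 in the 72 h exposed cells after 0.22 at 24 h, an interaction of −1.59 ± 0.10 (adjusted p = 5.35e-06). NUPR1, a stress-induced chromatin protein, reversed from 0.65 to −0.64. ATF3 had a response of 1.56 at 24 h and 0.50 at 72 h. Of its 3 other probes 2 were also called lower, and the remaining probe had the opposite sign and was not called (0.39).

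Of 16 endoplasmic reticulum chaperones and partners, 6 were lower and none higher. DNAJB9, a co-chaperone of the unfolded protein response, was at 1.53, 1.54 and 1.56 in the 24 h controls, 2.31, 2.31 and 2.37 in the 24 h exposed cells, 1.37, 1.43 and 1.36 in the 72 h controls and 0.73, 0.70 and 0.56 in the 72 h exposed cells. It reversed from 0.79 to −0.73 (interaction −1.52 ± 0.08, adjusted p = 2.51e-06). XBP1, the factor that expands the endoplasmic reticulum, was lower at both times, by more at 72 h (−1.75 after −0.72).

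Of 23 heat shock proteins, 5 were lower and none higher, and the median was 0.11 (−0.05 with quantile normalization). The 5 were HSPA6, HSPA1A, HSPA1B, CRYAB and HSPB8. Other inducible or small members were not called, among them HSPB1 (interaction −0.20), DNAJB1 (−0.31), BAG3 (−0.28) and HSPH1 (0.13). HSPA1A and HSPA1B are near-identical copies whose probes may not tell them apart. HSPA6, the HSP70 that is nearly silent without stress, was at −6.32, −5.40 and −5.29 in the 24 h controls, −1.23, −1.03 and −0.84 in the 24 h exposed cells, −5.2, −5.53 and −5.71 in the 72 h controls and −4.09, −4.05 and −4.12 in the 72 h exposed cells. The response shrank from 4.64 to 1.39 (interaction −3.24 ± 0.34, adjusted p = 7.66e-05). As 2 of the 3 24 h controls were well above background, the size at 24 h rests in part on signals near background. The other HSPA6 probe had responses of 3.36 and 0.90 and was transient. CRYAB reversed from 1.57 to −1.03, and HSPB8 was transient, from 1.29 to −0.05.

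The promoters of the pair are printed with the same capitals because both hold heat shock element letters: HSPA6 at chr1:161524290-161524589 and HSPB8 at chr12:119178681-119178980, both on the plus strand.
HSPA6: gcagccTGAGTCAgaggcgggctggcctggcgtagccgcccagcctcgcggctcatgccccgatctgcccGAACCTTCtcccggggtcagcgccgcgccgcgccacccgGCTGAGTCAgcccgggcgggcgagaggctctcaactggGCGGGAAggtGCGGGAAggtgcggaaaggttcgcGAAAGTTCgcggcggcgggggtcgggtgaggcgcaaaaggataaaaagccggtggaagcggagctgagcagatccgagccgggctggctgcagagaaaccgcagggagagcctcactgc
HSPB8: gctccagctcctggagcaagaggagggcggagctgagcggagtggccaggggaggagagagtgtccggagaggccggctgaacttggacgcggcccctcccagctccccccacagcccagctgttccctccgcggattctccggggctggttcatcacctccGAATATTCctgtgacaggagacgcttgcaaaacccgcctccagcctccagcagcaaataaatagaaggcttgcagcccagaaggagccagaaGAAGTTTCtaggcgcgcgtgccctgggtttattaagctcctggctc
In HSPA6 the heat shock letters start at −180 and −69, beside AP-1 letters at −244 and −139 and E2F letters at −103 and −93. In HSPB8 they start at −88 and 5. They were in 38.1% of 21 heat shock promoters and 4.74% of all 11542.

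Of 26 NRF2 targets, which answer oxidants, 4 were higher and 1 lower, with a median of 0.05 (−0.09 with quantile normalization). GCLC, the rate-limiting enzyme of glutathione synthesis, had a log2 response of −0.92 at 24 h and −0.11 at 72 h. Sulfiredoxin, SRXN1, had responses of −0.34 and 0.52. Of 9 metallothioneins and zinc exporters none was called. The brightest, MT2A, had responses of 0.46 and 0.33 (interaction −0.14 ± 0.09, adjusted p = 0.24). Of 22 p53 targets 3 were lower: TP53INP1 (−0.01 and −1.38), BBC3 (0.46 and −0.71) and CDKN1A (0.65 and −0.11).

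Of 21 immediate-early and DUSP genes, 9 were lower and 2 higher, MYC (0.25 and 0.93) and FOSL1 (1.25 and 1.89). NR4A2, a nuclear receptor of the early response, had a response of 0.30 at 24 h and −0.88 at 72 h. Of 25 lysosome and autophagy genes 7 were lower and none higher. WIPI1, which helps form autophagosomes, was at 1.24, 1.12 and 1.17 in the 24 h controls, 2.14, 2.05 and 2.11 in the 24 h exposed cells, 1.12, 1.21 and 1.16 in the 72 h controls and 0.14, 0.07 and 0.00 in the 72 h exposed cells. The controls of both times overlapped, and the response reversed from 0.93 to −1.09 (interaction −2.02 ± 0.08, adjusted p = 9.22e-07). GABARAPL1, an autophagosome protein, went from 0.39, below the fold threshold, to −1.27. Its other probe went from 0.63 to −1.37 and was reversed.

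Of 22 hypoxia and glycolysis genes 12 were lower and none higher (median −0.75). CA9, a carbonic anhydrase induced by hypoxia, was at −4.86, −5.21 and −4.84 in the 24 h controls and −0.43, −0.85 and −0.49 in the 72 h controls, a control rise of 4.38. Its exposed cells were at −6.89, −6.31 and −6.57 at 24 h and −4.76, −4.63 and −4.31 at 72 h, below the controls of their own time at both, with responses of −1.62 and −3.98. Of 30 cholesterol and fatty acid genes 11 were lower and none higher (median −0.45). MSMO1, a sterol oxidase, reversed from 0.77 to −0.67. Of 18 cytochrome P450 and alcohol or aldehyde dehydrogenase genes 6 were lower and none higher, among them ALDH2 (−0.06 and −1.16), which clears acetaldehyde. Another of the 6, ADH6, entered the test only through the 72 h controls, which fixed its direction.

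The cell cycle lists held no called decrease. Of 22 mitosis genes 14 were higher and none lower (median 0.66), and of 23 DNA replication genes also 14 and none (median 0.66). For 10 of the 14 mitosis genes and 11 of the 14 DNA replication genes, neither single response was called. The median response of the mitosis genes was −0.48 at 24 h and 0.15 at 72 h, and that of the DNA replication genes −0.29 and 0.37. CCNB1, the mitotic cyclin, was at 3.86, 3.78 and 3.73 in the 24 h controls, 3.36, 3.32 and 3.31 in the 24 h exposed cells, 3.54, 3.57 and 3.57 in the 72 h controls and 3.89, 3.95 and 3.95 in the 72 h exposed cells. The exposed cells were below the controls at 24 h and above them at 72 h, with responses of −0.46 and 0.37 that were each below the fold threshold (interaction 0.83 ± 0.07, adjusted p = 1.79e-05). The other CCNB1 probe had responses of −0.45 and 0.10, and its interaction of 0.55 was below the fold threshold and not called.

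RRM2, which makes deoxynucleotides, was at 0.66, 0.50 and 0.62 in the 24 h controls and 0.42, 0.48 and 0.51 in the 24 h exposed cells. At 72 h it was at −0.68, −0.63 and −0.67 in controls and 0.19, 0.30 and 0.26 in exposed cells. The control level fell by 1.25 and the exposed level by 0.22 (interaction 1.03 ± 0.08, adjusted p = 1.4e-05). E2F1, a transcription factor of the cycle, had responses of −0.30 and 0.55, both below the fold threshold. CCNE2, which starts replication, had responses of −0.16 and 0.67. The CCNE2 interaction lost its call with normexp and with the median intensities, and its other probe was not called (adjusted p = 0.103).

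The promoter of CLSPN (chr1:35769929-35770228, minus strand), a reversed transcript, is printed because it was among the 4 of 5 promoters of transcripts that reversed from lower to higher that held E2F letters.
CLSPN: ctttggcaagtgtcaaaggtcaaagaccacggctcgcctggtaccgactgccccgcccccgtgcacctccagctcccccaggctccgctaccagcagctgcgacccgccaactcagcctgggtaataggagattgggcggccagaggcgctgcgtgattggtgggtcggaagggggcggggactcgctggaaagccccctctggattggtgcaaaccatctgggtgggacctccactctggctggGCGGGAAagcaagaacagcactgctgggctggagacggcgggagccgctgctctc
The E2F letters, capitals, start at −5. They were in 45% of 20 DNA replication promoters, in 5.26% of 19 mitosis promoters and in 9.79% of all 11542.

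**Figure D5:**
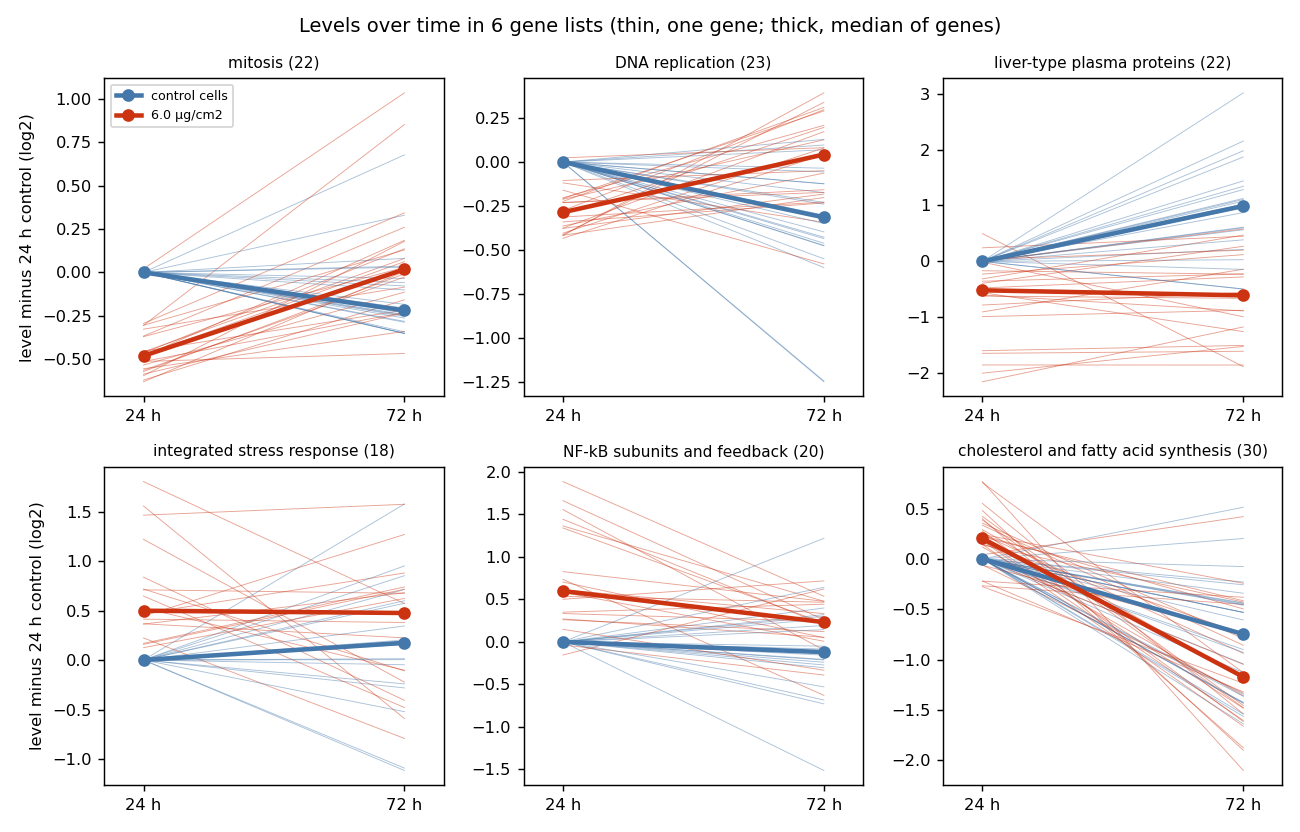
Median log2 level of 6 gene lists in control cells and in exposed cells at 24 h and 72 h, relative to the 24 h controls; lines join the group medians over the tested members. The exposed cells lie below the controls at 24 h and above them at 72 h in the mitosis and DNA replication lists, close at 72 h to the 24 h controls (0.02 and 0.04), and the liver-type plasma proteins rise in control cells and not in exposed cells.

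Between the times the median of the liver-type plasma proteins moved by 0.99 in control cells and 0.15 in exposed cells, that of the coagulation list by 0.34 and 0.10 and that of the complement list by 0.37 and 0.08. Of 22 liver-type plasma proteins tested 13 were lower at 72 h and 1, the fetal albumin relative AFP, was higher (median −0.78). For 2 of the 13, ALB and ORM2, a single group in which they were high let them into the test, which fixed their direction. CP, the copper carrier ceruloplasmin, was at −3.20, −3.07 and −3.03 in the 24 h controls, −3.72, −3.77 and −3.67 in the 24 h exposed cells, −1.15, −1.01 and −0.67 in the 72 h controls and −3.24, −3.96 and −4.07 in the 72 h exposed cells. The 72 h controls stood high and the response grew from −0.62 to −2.81 (interaction −2.19 ± 0.27, adjusted p = 0.000208). TTR, the thyroxine carrier transthyretin, was a late decrease, with responses of 0.50 and −1.91, and moved by 0.03 in control cells and −2.38 in exposed cells. HPX, which binds free heme, had responses of −0.56 and −2.33, RBP4, the retinol carrier, −0.78 and −1.84, and SERPINA1, the inhibitor of neutrophil elastase, −0.39 and −1.71.

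Of 22 coagulation and fibrinolysis genes 10 were lower and none higher (median −0.56). For 2 of the 10, F13B and SERPINA5, a single group in which they were high let them into the test, which fixed their direction. FGA, the fibrinogen alpha chain, was at −0.09, −0.12 and −0.23 in the 24 h controls, −1.24, −1.24 and −1.19 in the 24 h exposed cells, 1.92, 1.71 and 1.71 in the 72 h controls and −0.97, −0.92 and −0.73 in the 72 h exposed cells. The response grew from −1.08 to −2.65 (interaction −1.58 ± 0.11, adjusted p = 9.19e-06), with 1.93 gained by control cells and 0.35 by exposed cells. TFPI, the inhibitor of the first step of clotting, reversed from 0.66 to −0.95. SERPINA5, an inhibitor of several clotting proteases, was at least 1.88-fold lower at 72 h.

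Of 20 complement and innate genes 10 were lower and PTX3 alone was higher (median −0.63). CFB, complement factor B, was at −2.72, −2.87 and −2.93 in the 72 h controls and −4.80, −4.94 and −4.71 in the 72 h exposed cells, after a response of 0.55 at 24 h. The acute-phase gene SAA2 was at least 2.61-fold higher at 24 h and not well above background at 72 h. It is 1 of the 10, and it entered the test only through the 24 h exposed cells, which fixed its direction.

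The promoters of FGA (chr4:154590693-154590992) and ADH6 (chr4:99219197-99219496), both on the minus strand, are shown as a pair of growing decreases that hold HNF1 letters, those of a liver transcription factor.
FGA: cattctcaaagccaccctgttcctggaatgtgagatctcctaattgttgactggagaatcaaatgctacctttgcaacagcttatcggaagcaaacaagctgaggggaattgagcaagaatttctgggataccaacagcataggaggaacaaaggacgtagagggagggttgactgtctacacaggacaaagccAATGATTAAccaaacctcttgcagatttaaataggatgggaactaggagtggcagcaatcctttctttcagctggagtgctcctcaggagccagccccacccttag
ADH6: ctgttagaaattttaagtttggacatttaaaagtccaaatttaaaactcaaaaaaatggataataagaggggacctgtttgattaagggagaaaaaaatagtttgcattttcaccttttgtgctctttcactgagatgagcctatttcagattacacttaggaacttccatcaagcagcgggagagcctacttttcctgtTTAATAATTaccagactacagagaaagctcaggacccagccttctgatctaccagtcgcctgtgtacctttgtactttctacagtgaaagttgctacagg
The capitals start at −56 in FGA and −50 in ADH6. HNF1 letters were in 5 of 139 promoters (3.6%) of growing decreases, in 2 of 17 (11.8%) of the coagulation list, in 2 of 16 (12.5%) of the liver-type list and in 0.736% of all 11542.

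Of 24 matrix and protease genes 4 were lower and 1, CCN1, was higher (median −0.25). MMP1, interstitial collagenase, was at −5.2, −5.25 and −5.58 in the 24 h controls, −1.13, −1.17 and −1.34 in the 24 h exposed cells, −5.73, −5.96 and −6.04 in the 72 h controls and −3.90, −3.97 and −3.98 in the 72 h exposed cells. The response shrank from 4.13 to 1.96 (interaction −2.18 ± 0.16, adjusted p = 9.96e-06) and the groups stayed apart at both times. LAMB3, a laminin chain of the basement membrane, had responses of 0.61 and −0.58. Of 13 ID and BMP genes 2 were called, in opposite directions: BMP2, lower, and its antagonist NOG, higher (0.38 and 1.18), whose interaction of 0.80 became −0.05 with normexp.

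Signal strength bears on some of these values. Of the 84 named genes with a called interaction, 25 had a group in which no array was well above background, 16 of them among the 31 with the largest changes of their class, and for these the size of the interaction rests on signals near background. The calls of FAM151A, EXD3, ADH4, PCSK1, ADH6, SERPINA5 and SAA2 were also lost with normexp. Of the 170 called list members, 11 passed the filter through a single group, 4 of them the cytokines above. The others were F13B, SERPINA5, ALB, ORM2, ADH6, SAA2 and IFI44. Among genes named by class, PCSK1, SLC6A12, ADH4, FAM151A and TAS2R60 also passed through a single group. Over all called probes 85.1% were well above background on all 12 arrays, against 89.2% of probes tested. Of 16 other probes of the named genes, 15 had the same sign and 11 were also called. The class could differ between probes of a gene, as for ATF3, CP, GABARAPL1, HSPA6 and IL24.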

How the data were processed

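Total RNA of A549 cultures was labelled with Cy3 and hybridised to single-colour Agilent human 4x44K arrays, and the deposited files hold each spot's intensity from Agilent Feature Extraction 11.0.1.1, background-subtracted by the authors' scanner software (per the file headers). The value table, which the authors deposited beside them, equals the median intensity of each spot within 0.01 (800910 of 800910 values compared); 20 of its columns of per-sample values were not used.

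The processed intensity was put on the log2 scale and set relative to the 75th percentile of its array. Control spots and spots flagged as non-uniform or population outliers (0.447%) were removed, and repeated spots were averaged by probe. A probe was tested when all 3 arrays of any of the 4 groups had it well above background; 11521 probes were not tested. Of 34127 probes, 25771 were named through their accession in RefSeq, as 19740 symbols. Groups were fitted in 1 model of 12 arrays with limma 3.58.1 in R 4.3.3 (lmFit and eBayes), and p-values were adjusted by Benjamini-Hochberg over all probes tested. They measure the spread between 3 cultures. The study's own criteria, an unpaired test with adjusted p under 0.05 and a fold of 1.5, set the thresholds.

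The members, the gene lists and the rule for named genes were chosen with earlier results of these data known. A gene was represented by its brightest tested probe. Named were the called genes with the largest interaction in each class, without overlap of exposed and control arrays at the times of the class, and the 3 largest called members of each list; 3 of them are not reported here. A further 36 genes, ranked the same way among those well above background on all 12 arrays, were added after seeing the data. An "at least" fold sets the brighter group's mean against the dimmest signal well above background on each array of the other group.

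On simulated data for this interaction (22600 probes) the fit recovered 73.1%, 73.1% and 97% of changes of 0.8, 1.2 and 2 on the log2 scale. Alternatives covered background correction, scaling, filters, thresholds, blocks and arrays left out. Normexp used the median signal, as the files used here give no mean signal. No pairing by replicate number was detected: deviations from group means correlated between −0.168 and 0.165 over 18 pairs with the same number. Pairs with different numbers ranged from −0.238 to 0.216. Arrays with the same number shared a slide in all groups but the 72 h exposed cells, and whether their cultures were paired is not settled by these values. Motifs were searched in RefSeq promoters (GRCh38.p14, 300 bases) of 11542 tested genes.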

Additional observations from a re-analysis of the deposited data

Results flagged for a closer look

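For 84 of the 85 named genes the responses to 6.0 µg/cm2 at the 2 times differed by the test of the difference itself, the interaction in limma, with 3 arrays per group. Genes were named because their interaction was called, except where a list held no called member. The count was therefore fixed by the rule and is not a result. The values are the log2 response at 72 h minus that at 24 h, and the named gene without a call was MT2A. Groups of 3 arrays are too small for the check of single outlying samples, which was not made. Of these genes, TAS2R60 and FAM151A were below background in both 24 h groups, and SLC6A12 was well above background on 1 of its 6 arrays at 24 h, so their values rest on signals near background. PCSK1, SLC6A12, ADH4 and FAM151A entered the test only through the group in which they were high, which fixed their direction. The same held for the list members named above. The largest decreases were −3.66 for PCSK1, −3.6 for SLC6A12, −3.49 for C11orf96, −3.34 for BEX4, −3.24 for HSPA6, −3.24 for ALDOC, −3.23 for TXNIP, −3.22 for LRRC2, −3.16 for PTPRH, −3.15 for CEACAM5, −2.98 for TF and −2.95 for HK2. These were followed by −2.94 for HCAR3, −2.85 for BMP2, −2.75 for CSF3, −2.68 for EXD3, −2.65 for ADH4, −2.62 for ALOX5, −2.6 for CRYAB, −2.55 for ADH6, −2.52 for CFB, −2.44 for SERPINA5, −2.41 for TTR and −2.35 for CA9. Next came −2.33 for IL24, −2.19 for CP, −2.18 for MMP1, −2.07 for SAA2, −2.02 for WIPI1, −1.98 for CSF2, −1.66 for GABARAPL1, −1.62 for TFPI, −1.59 for CTH, −1.58 for FGA, −1.52 for DNAJB9 and −1.5 for ADH1C. Further values were −1.44 for MSMO1, −1.43 for IFI44, −1.38 for FN1, −1.37 for TP53INP1, −1.34 for HSPB8, −1.28 for NUPR1, −1.27 for SOD2, −1.27 for OASL, −1.26 for IFIT2, −1.19 for TRAF1, −1.19 for LAMB3 and −1.18 for NR4A2. Smaller values were −1.17 for BBC3, −1.1 for ALDH2, −1.06 for ATF3, −1.05 for CTSS, −1.02 for XBP1, −0.998 for HERPUD1, −0.968 for DUSP10, −0.968 for TNFAIP3, −0.82 for NR4A3 and −0.763 for CDKN1A. The other NR4A3 probe had an interaction of −0.01 and was not called.

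The response was higher at 72 h by 2.66 for FAM151A, 2.58 for NEFH, 2.57 for CABP7, 2.5 for CNN1, 2.1 for VXN, 2.08 for HLF, 2 for ANKRD2, 1.94 for UBD, 1.94 for PTX3, 1.81 for TAS2R60, 1.72 for SNORA74A and 1.67 for DLEU2L. It was also higher, by 1.65 for CLDN10, 1.38 for PEAR1, 1.24 for ATP2C2, 1.03 for RRM2, 0.861 for SRXN1, 0.844 for E2F1, 0.834 for OSGIN1, 0.834 for CCNB1, 0.827 for CCNE2, 0.825 for CCNA2, 0.821 for TPX2 and 0.811 for GCLC. The remaining values were 0.798 for NOG and 0.593 for CCL2.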

How the results depend on the processing

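The 3888 called interactions became 2498 with normexp background correction, 8564 without the fold threshold and 2565 in a fit with 1 probe per gene, each over 1.5 times apart. Transient transcripts (513) numbered 279 with the median intensities of the authors' value table, 1505 without the fold threshold and 332 with 1 probe per gene. Late transcripts (1711) numbered 944 with normexp, 4197 without the fold threshold and 1088 with 1 probe per gene. Reversed transcripts (79) numbered 21 with normexp, 22 with the median intensities, 48 among probes well above background on all 12 arrays and 1276 without the fold threshold. With 1 array left out the counts ranged from 3602 to 4011 for the interaction, 455 to 548 for transient, 1565 to 1877 for late and 73 to 85 for reversed transcripts. With a replicate block, although no pairing by number was detected, they were 3884, 507, 1703 and 79, and no call of a named gene changed. Of 1785 values of the 85 named genes under the alternatives, 1725 kept direction and call, 50 lost the call and 10 turned. With normexp the interactions of TAS2R60 (−0.334), VXN (−0.257), CLDN10 (−0.0736), PTX3 (−0.175), PEAR1 (−0.162), HLF (−0.397), ATP2C2 (−0.252) and NOG (−0.0514) turned negative, and with the median intensities those of VXN (−0.0338) and HLF (−0.0539). The cause was not tested. Leaving out a single array ended the call of CTSS for 7 arrays (−1.04 to −0.878, adjusted p 0.0505 to 0.063 in limma), of PEAR1 for 5 (1.23 to 1.35), of CCL2 for 5 (0.537 to 0.58, below the fold threshold) and of IFI44 without 24 h exposed replicate 3 or 72 h control replicate 2 (−1.32 to −1.31). List medians, recomputed under 4 scalings after seeing the data, kept their sign apart from those of chemokines, NRF2 targets and heat shock proteins. Signals near background limit the dim genes, and scan day and slide cannot be told apart from the 72 h exposure.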
